A study of Aspergillus nidulans with 8 samples.

Results

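Transcript levels under Congo Red were compared between mycelia of the filamentous fungus Aspergillus nidulans with and without a signal from atfA, the gene of a stress-response transcription factor. The comparison rests on 2 of the 8 arrays of the series, chosen by their Congo Red label, with 1 array for each strain label. The deletion strain, TNJ 92.4, carries DatfA::pyroA with pyroA4, pyrG89, AfupyrG+ and veA+. The reference strain, THS30.3, carries pyroA+ with pyrG89, AfupyrG+ and veA+. Both thus share pyrG89 complemented by AfupyrG+, and the deletion is marked with pyroA. Submerged cultures grown for 16 h at 37 °C in Barratt's minimal broth received 10 mM Congo Red and were harvested after 0.5 h. The labels are the only source for this dose. Each array held RNA pooled from 3 cultures, so a pool has no replicate, no test between strains is possible, and every difference below is an effect size for these 2 pools. In such bulk RNA, fewer cells of a kind and less RNA per cell cannot be told apart. The other 6 arrays hold both strain labels without treatment, after 2 mM amphotericin B (AmB) and after 0.2 mM CdCl2, and are used where the Congo Red pair is set beside other pairs.

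AtfA is a bZIP protein of the ATF/CREB family. In A. nidulans it acts with the mitogen-activated protein kinase SakA, which carries osmotic and oxidative stress signals to the nucleus, and it is known for the stress tolerance of conidia, the asexual spores. Congo Red is a dye that binds chitin and glucan chains and disturbs the assembly of the fungal cell wall. The gene lists below follow these roles, from the kinase pathway and spore formation to the cell wall, metabolism and secondary metabolites.

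The deleted gene itself contradicted the strain labels that the scanner files carry. Its probe (atfA, AN2911) had a processed signal of 2.38 on the Congo Red array labelled reference, not well above background, and of 8670 on the array labelled as the atfA deletion. In what follows the array labelled reference is called the atfA-silent array and the array labelled deletion the atfA-expressing array, and every direction between strains rests on this probe against the labels. On the other 3 pairs the atfA signal was 2.56, 2.31 and 3.1 on the atfA-silent arrays, against 7608, 3272 and 9711 on the atfA-expressing arrays of the untreated, AmB and CdCl2 pairs. The authors' deposited value table carried atfA as its labels say, at 6.22 in the Congo Red column labelled deletion and 14.29 in the column labelled reference (log2). Across probes the atfA-silent array correlated best with that table's Congo Red column labelled deletion (Pearson's r = 0.972, and 0.947 with the column of its own label), and the atfA-expressing array with the column labelled reference (r = 0.976, and 0.952 with its own).

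The 2 arrays lay on different slides, in the opposite order to the other pairs. The atfA-silent array under Congo Red was on slide 1 and the atfA-expressing array on slide 2, while in the other 3 conditions the atfA-silent arrays were on slide 2. Slide and strain cannot be told apart within a pair. Processed signals had a 75th percentile of 1293 on the atfA-silent array and 1062 on the atfA-expressing array, and 8288 and 8046 of the 10550 probes were well above background there. Levels are given as the mean log2 processed signal of a probe's 4 spots minus log2 of the array's own 75th percentile, so that 0 stands for that percentile. A difference is the level on the atfA-silent array minus that on the atfA-expressing array. On this scale atfA stood at -9.09 on the atfA-silent array and 3.03 on the atfA-expressing array, a difference of -12.11, or at least 887-fold lower. For a probe that did not stand well above background on the dimmer array, the fold is given in this way as "at least". It was taken against the probe's own signal there or the lowest signal of any probe that array detected, whichever was higher. The marker gene pyroA (AN7725), of vitamin B6 synthesis, stood at 3.12 on the atfA-silent array and 1.76 on the atfA-expressing array. For pyrG (AN6157), orotidine phosphate decarboxylase, the levels were 2.78 and 2.63, a difference of 0.15. Of the genes known for spores, wetA, vosA and catA were not well above background on either array, whose label is mycelia. Other genes of spores and conidiophores were detected. Among them rodA, ivoB, yA, pksP and abaA were above background on both arrays, and brlA, ivoA and dewA on the atfA-silent array alone.

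Most genes lay within 2-fold. Of 8419 genes well above background on at least 1 of the 2 arrays, 87.7% differed by less than 2-fold, with a median difference of 0.065 and quartiles of -0.217 and 0.332 (log2). At least 2-fold higher on the atfA-silent array were 544 genes (6.46%), and 494 genes were at least 2-fold lower (5.87%), together 1038 (12.3%). The split between higher and lower depended on the background correction and the source of values: 52.4% of the calls were higher here, 38.9% after normexp background correction and 41.3% in the authors' deposited value table. At least 8-fold higher were 76 genes and at least 8-fold lower were 97. Beyond 32-fold were 21 higher and 27 lower. Calls gathered among dim probes. In the dimmest tertile by mean level 22.7% of 2806 genes were called, with 387 higher and 249 lower, against 9.62% in the middle tertile and 4.70% in the brightest, where 49 were higher and 83 lower. Of the higher genes, 190 were above background on the atfA-silent array and not on the atfA-expressing array, and 105 of the lower genes were above background on the atfA-expressing array alone. With every such dim array set to its bound, 455 genes were higher and 468 lower. The other pairs had wider differences, with 16.3% of genes past 2-fold either way without treatment, 34.7% under AmB and 19.2% under CdCl2.

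**Figure D1:**
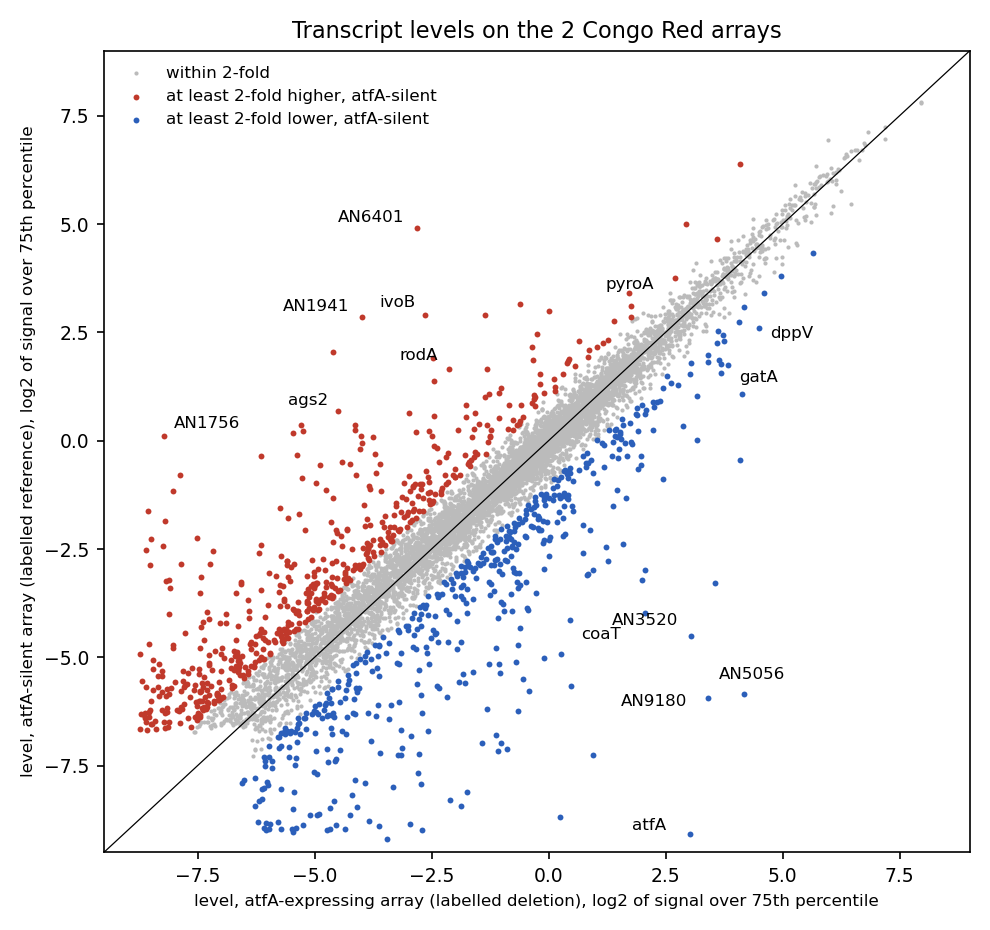
Level of each of 8419 genes on the atfA-silent array (labelled reference, vertical axis) against the atfA-expressing array (labelled deletion, horizontal axis) under Congo Red, both as log2 of signal over the array's 75th percentile. Red points are 544 genes at least 2-fold higher and blue points 494 genes at least 2-fold lower on the atfA-silent array; the line marks equal levels. The atfA probe lies at 3.03 on the horizontal and -9.09 on the vertical axis.

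Genes of the conidium wall and conidiophore pigment held some of the largest differences among named genes. Of 7 genes listed, all were compared, 4 were at least 2-fold higher on the atfA-silent array (labelled reference) and none lower, and the median of the list was 1.29, or 1.09 with dim arrays at their bounds, beside 0.065 for all genes compared, of which 6.46% were higher and 5.87% lower. The pigment gene ivoB (AN0231), which makes the brown colour of the conidiophore, stood at 2.90 on the atfA-silent array and -2.65 on the atfA-expressing array, a difference of 5.54 ± 0.05 (SE from the spots, which covers the slide and not the cultures). The companion gene ivoA (AN10576) was at -3.78 and -6.0, at least 4.66-fold higher. The hydrophobin gene rodA (AN8803), whose product coats the spore surface with rodlets, was at 1.66 on the atfA-silent array and -2.12 on the atfA-expressing array, a difference of 3.79 ± 0.05. A second hydrophobin gene, dewA (AN8006), was at least 2.12-fold higher. Other spore genes differed little: yA (AN6635), the laccase of the green spore pigment, differed by 0.04, and the symbol pksP (AN8209), a polyketide synthase of spore pigment, by -0.29. AN5015, of the same list, stood at 0.90, the side opposite to its values of -0.92 untreated and -0.81 under CdCl2.

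Upstream of these genes, the regulators of conidiation stayed close together on the 2 arrays apart from brlA. Of 7 listed, 6 were compared, 1 was higher and none lower, beside 6.46% and 5.87% of all genes compared, with a median of -0.06. The gene brlA (AN0973), the zinc finger regulator that starts conidiophore development, stood at -3.92 on the atfA-silent array (labelled reference) and -6.39 on the atfA-expressing array, where it was not well above background, so it was at least 5.55-fold higher. Its difference was 0.71 in the untreated pair and 1.15 in the CdCl2 pair, and it was not well above background on either AmB array. The later regulator abaA (AN0422) differed by -0.01, stuA (AN5836) by -0.04, and the early regulators flbB (AN7542), flbC (AN2421) and flbD by -0.08, -0.27 and -0.57. Among 10 compared genes of the velvet complex and sexual development, 1 was higher and none lower, with a median of 0.02. These counts stand beside the same shares of all genes. The velvet partners veA and velB (AN0363) differed by 0.42 and -0.01, laeA, the methyltransferase that joins them, by 0.21, and esdC (AN9121), of early sexual development, by -0.17. The member past 2-fold was AN5170, at least 3.16-fold higher. The receptor gene gprD (AN3387), known as a repressor of sexual development and not on that list, stood at -1.17 on the atfA-silent array and -2.96 on the atfA-expressing array, a difference of 1.79 that was positive in the other 3 pairs too, at 1.49 to 2.65.

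In the kinase pathway that leads to AtfA, 1 of 8 genes was past 2-fold, beside 12.3% of all genes compared, and the median was -0.02. The kinase gene sakA stood at 0.98 on the atfA-silent array (labelled reference) and 1.29 on the atfA-expressing array, a difference of -0.31. Its upstream kinase pbs2 (AN0931) differed by 0.03 and the sensor kinase gene tcsC (AN4479) by -0.07. The phosphotransfer gene ypdA (AN2005) was at 0.11, and the response regulator genes sskA (AN7697) and skn7 at -0.10 and -0.31. The member past 2-fold, mpkC (AN4668), a second kinase similar to SakA, was dim: it stood at -6.54 on the atfA-silent array and was not above background on the atfA-expressing array, at least 1.05-fold higher. Among other bZIP genes, atfB (AN6849) was lower, at -4.37 against -3.21, a difference of -1.16 ± 0.08. The symbol yap1 (AN7513), a bZIP factor of oxidative stress, differed by 0.16.

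Of 11 catalase and antioxidant genes compared, none was higher and 2 were lower on the atfA-silent array (labelled reference), beside 6.46% and 5.87% of all genes, with a median of 0.16. The catalase gene cat1 (AN9339) stood at -0.64 on the atfA-silent array and 0.46 on the atfA-expressing array, a difference of -1.10 ± 0.02. In the other pairs cat1 was lower by more, at -2.83 untreated, -1.89 under AmB and -2.29 under CdCl2. AN7388 was at least 2.60-fold lower. The superoxide dismutase genes sod1 (AN0241) and sod2 differed by 0.21 and -0.03, and the thioredoxin reductase gene trr1 (AN3581) by 0.21. All 4 chaperone genes were below 0 without reaching 2-fold, where 12.3% of all genes compared were past 2-fold. Their median was -0.41, beside 0.065 for all genes. The chaperone gene hsp70 (AN5129) was at -0.38, hsp90 (AN8269) at -0.24, bipA (AN2062), an endoplasmic reticulum chaperone, at -0.74, and AN0858 at -0.44. In the untreated, AmB and CdCl2 pairs the median of the 4 chaperone genes was -0.19, -0.55 and 1.56. There bipA stood at 1.38, 1.04 and 1.76, and AN0858 at -1.55, -1.04 and -0.61. Of 7 genes of trehalose and glycerol metabolism, AN6792 was higher, at -1.99 against -3.52, and orlA (AN3441), of trehalose synthesis, stood at -0.51.

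For the cell wall, where Congo Red acts, the listed genes of synthesis and of the integrity pathway held a single difference past 2-fold. All 13 genes of glucan and chitin synthesis were above background on both arrays, with a median of -0.13. Of these, 1 was at least 2-fold higher and none lower, beside 6.46% and 5.87% of all genes compared. That gene, ags2 (AN5885), an alpha-1,3-glucan synthase, stood at 0.68 on the atfA-silent array (labelled reference) and -4.49 on the atfA-expressing array, a difference of 5.17 ± 0.05, beside 3.54 untreated and 3.81 under CdCl2, while neither AmB array had it well above background. The other gene of this enzyme, ags1, went the opposite way without reaching 2-fold, at 2.53 and 3.36, a difference of -0.84. The chitin synthase genes chsA (AN4566), chsB (AN7032), chsE, chsF (AN1555), chsG and csmB lay between -0.37 and 0.13. gfa1, of the first step towards chitin precursors, was at -0.68, and the glucanosyltransferase gene gel1 (AN7657) at -0.16. None of 7 genes of the cell wall integrity pathway reached 2-fold, beside 12.3% of all genes compared. The differences of these 7 genes ran from -0.44 to 0.05. In this pathway rho1 (AN5740), the small GTPase at its head, was at -0.01 and pkcA, protein kinase C, at 0.05. The gene bck1 (AN4887), a kinase below pkcA, was at -0.16, and rlmA (AN2984), the transcription factor of the pathway, at -0.01. Some listed genes of enzymes that take walls and proteins apart in ageing cultures were lower. Of 8 compared genes of autolytic hydrolases and peptidases, 3 were lower and none higher, beside 5.87% and 6.46% of all genes compared, with a median of -0.48. The dipeptidyl peptidase gene dppIV (AN6438) stood at -0.55 on the atfA-silent array and 1.98 on the atfA-expressing array, a difference of -2.53, and dppV (AN2572) at 2.61 and 4.50, a difference of -1.90. The chitinase gene chiA1 (AN8241) was at -2.23 and 0.02, a difference of -2.25. The rest of this list lay within 2-fold, with AN0472 at 0.26, AN1502 at -0.08, AN4871 at -0.28, AN5558 at -0.40 and bgt2 (AN7950) at -0.56. AN7349 and mep20, also listed, were not well above background on either array.

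**Figure D2:**
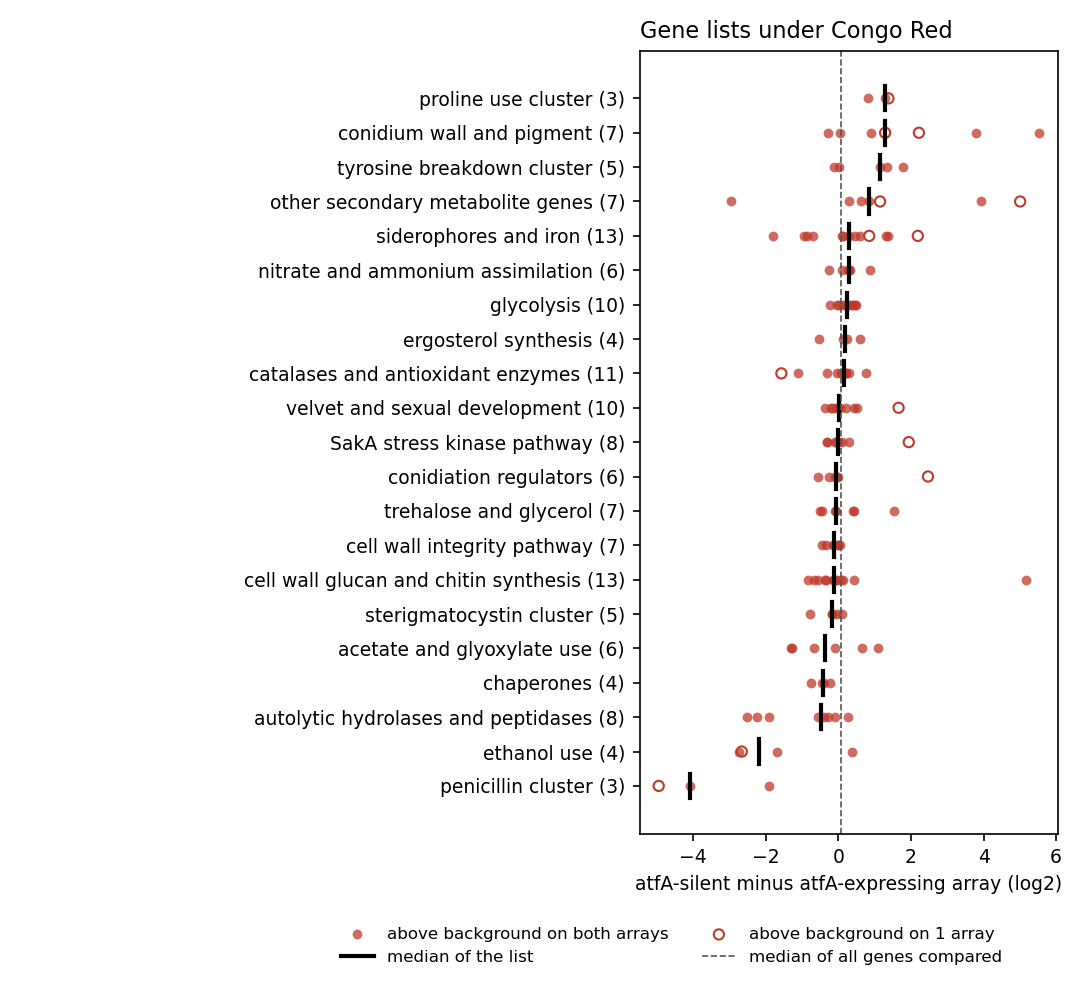
Differences under Congo Red (atfA-silent minus atfA-expressing array, log2) of the compared members of 21 gene lists, with the number of genes in parentheses. Filled points are above background on both arrays, open points on 1 array, black bars are list medians, and the dashed line is the median of all genes compared, 0.065. List medians run from -4.10 for the penicillin cluster to 1.29 for the proline and conidium wall lists.

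Genes of secondary metabolism differed in opposite directions. All 3 genes listed for penicillin synthesis were lower on the atfA-silent array (labelled reference), beside 5.87% of all genes compared. AN2622 stood at -5.15 on the atfA-silent array and -1.05 on the atfA-expressing array, a difference of -4.10 ± 0.09. AN2623 was at -2.78 and -0.88, a difference of -1.90 ± 0.06, and AN2621 was not above background on the atfA-silent array, at least 7.6-fold lower. The list's median was -4.10, or -2.93 with the dim array at its bound, and -1.62 after normexp background correction and -1.82 in the authors' deposited value table. In the untreated, AmB and CdCl2 pairs, with AN2621 at its bound, the medians were -4.50, -2.13 and -4.13. All 3 genes were at least 2-fold lower in each, beside 11.0%, 14.9% and 10.5% of all genes. The sterigmatocystin cluster, of a polyketide mycotoxin, had 5 of 13 members bright enough to compare. None of these reached 2-fold (median -0.17), beside 12.3% of all genes compared. The medians were -1.30 over 4 of these untreated, and -0.51 and -1.22 over all 5 under AmB and CdCl2. Of 7 compared genes of other secondary metabolites, 3 were higher and 1 lower, beside 6.46% and 5.87% of all genes compared. AN7903 was at least 13.6-fold higher, and AN7909 stood at -0.49 on the atfA-silent array and -4.42 on the atfA-expressing array, a difference of 3.93. AN7896 went the other way, at -2.07 and 0.88, a difference of -2.95. AN6448 was dim, at least 1.38-fold higher.

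Sets of catabolic genes differed in direction, and members of some sets differed among themselves. The 3 proline use genes were all above 0, where the median of all genes compared also lay, at 0.065. They were prnB (AN1732), the proline transporter, at 1.29, prnC (AN1733) at least 1.41-fold higher, and prnD (AN1731), proline oxidase, at 0.82. Of the 3, 2 were counted as at least 2-fold higher, beside 6.46% of all genes, and prnC reached 2-fold only without its bound. The median of the list was 1.29, or 0.82 with dim arrays at their bounds. In the tyrosine breakdown cluster 3 of 5 genes were at least 2-fold higher on the atfA-silent array (labelled reference), beside 6.46% of all genes, and none lower. The gene hmgX (AN1898) stood at -3.81 on the atfA-silent array and -5.58 on the atfA-expressing array, a difference of 1.77, hmgA (AN1897), homogentisate dioxygenase, differed by 1.34, and AN1899 by 1.16. The neighbours maiA (AN1895) and fahA (AN1896), which catalyse the last steps, were at 0.02 and -0.13. In the untreated pair all of these but hmgX and AN1899 were below 0, and in the AmB pair all 5 were at least 2-fold higher, beside 19.7% of all genes there, with a median of 3.73. Ethanol use leaned down. Of 4 genes, 3 were lower, beside 5.87% of all genes, and the median was -2.18, or -1.51 with the dim array at its bound. AN8979 stood at -3.54 on the atfA-silent array and -0.81 on the atfA-expressing array, a difference of -2.73, AN8978 differed by -1.69, and AN8981 was at least 2.49-fold lower, while AN0554 was at 0.37. These 3 were at least 2-fold lower in the untreated and CdCl2 pairs as well, where 11.0% and 10.5% of all genes were. In the AmB pair AN8979 and AN8978 stood at 0.14 and 0.25, and AN8981 was not well above background on either array. Acetate and glyoxylate use was mixed, with AN5626 at -1.30 and AN5634 at -1.28 lower, acuF (AN1918), of gluconeogenesis, higher at 1.09, and facB (AN0689), the regulator of acetate use, at -0.09.

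The listed genes of housekeeping and assimilation pathways stayed within 2-fold, as did 87.7% of all genes compared. In the brightest tertile by mean level 4.70% of genes were past 2-fold. None of 10 glycolysis genes reached 2-fold, with differences from -0.24 to 0.48 and a median of 0.25. pgkA (AN1246), phosphoglycerate kinase, was at 0.22 and gpdA, glyceraldehyde phosphate dehydrogenase, at -0.24. None of 6 genes of nitrate and ammonium assimilation reached it, with niaD (AN1006), nitrate reductase, at 0.31, niiA (AN1007), nitrite reductase, at 0.27, and crnA (AN1008), a nitrate transporter, at 0.30. The 4 ergosterol genes ran from -0.52 for erg4 (AN10648) to 0.59 for erg2 (AN0451).

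Several siderophore and iron genes had the opposite sign to the other pairs. Siderophores are small iron chelators, made for uptake from the medium and for storage. Of 13 genes, 3 were at least 2-fold higher on the atfA-silent array (labelled reference) and 1 lower, beside 6.46% and 5.87% of all genes compared. The median of the list was 0.30. That median was 0.05 after normexp background correction, 0.14 over members above background on both arrays and 0.19 in the authors' deposited value table. In the untreated, AmB and CdCl2 pairs the medians were -0.65, -0.83 and -0.68, with 0, 1 and 0 members higher and 3, 6 and 4 lower. The background there was 5.29%, 19.7% and 8.67% of genes higher and 11.0%, 14.9% and 10.5% lower. AN5823 stood at -2.48 on the atfA-silent array and -3.86 on the atfA-expressing array, a difference of 1.38 ± 0.05 under Congo Red, beside -0.99, -0.83 and -0.70. The gene sidH (AN6235), of fusarinine synthesis, differed by 1.32 ± 0.11, beside -0.52, -0.62 and -0.33. AN6234 was at least 3.56-fold higher under Congo Red, and stood at -0.43 untreated and -0.90 under CdCl2, and under AmB was at least 1.49-fold lower. sidD (AN6236), a peptide synthetase, was at 0.10, sidI at 0.85 and the transporter genes mirC (AN7485) and mirD (AN6238) at 0.30 and 0.47. Members that kept the lower side were AN8539 at -1.79, mirB, a siderophore transporter, at -0.94, sidC, a peptide synthetase, at -0.85, and AN7800 at -0.70. Of the regulators, hapX (AN8251), which acts under iron shortage, was at 0.14, beside -0.81, -0.03 and -0.49 in the untreated, AmB and CdCl2 pairs. The regulator sreA, which acts under iron sufficiency, was at 0.61 and did not turn, with 0.60, 0.60 and 0.64 there. The Congo Red pair has the opposite slide order to the other pairs, and the part of the slide in the turn of sign of several members was not tested.

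**Figure D3:**
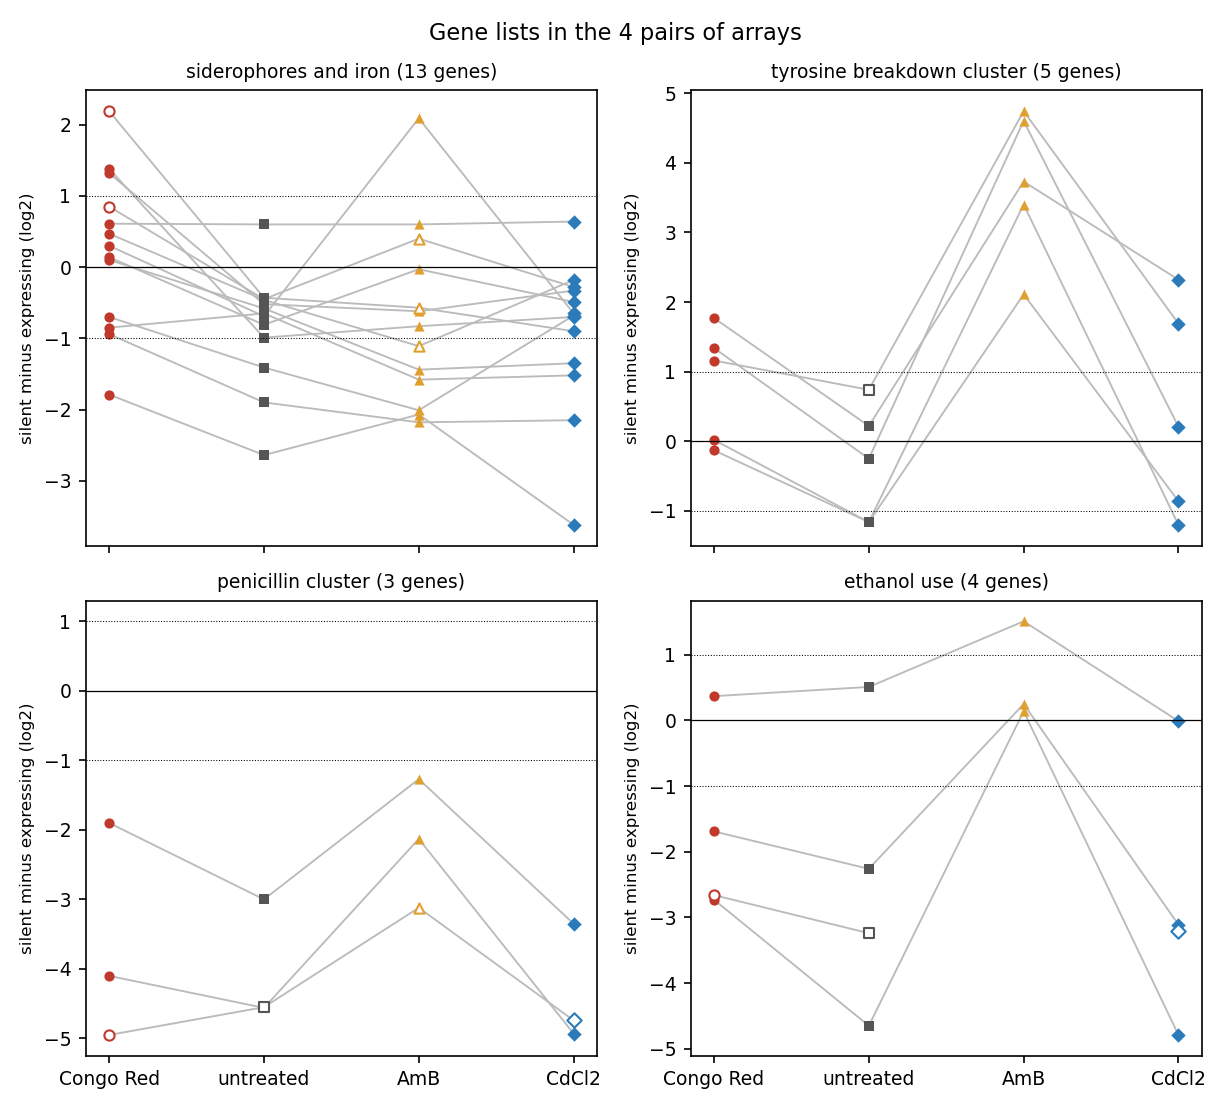
Differences (atfA-silent minus atfA-expressing array, log2, vertical axis) of the compared genes of 4 lists in the Congo Red, untreated, AmB and CdCl2 pairs of arrays; grey lines join a gene and dotted lines mark 2-fold. Filled symbols are above background on both arrays of the pair and open symbols on 1, and none is drawn where neither array was. The siderophore list has a median of 0.30 under Congo Red, or 0.05 after normexp background correction, and of -0.65 untreated. The 3 penicillin genes lie below 0 in every pair.

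Among all genes with a symbol in the reference table, 45 of 748 compared were past 2-fold (6.02%), 28 higher and 17 lower on the atfA-silent array (labelled reference). Of all genes compared, 12.3% were past 2-fold, 6.46% higher and 5.87% lower. Besides those above, the largest on the higher side was prm1 (AN5614), known in yeast for membrane fusion in mating, which was at least 3.72-fold higher. agdC (AN0941), an alpha-glucosidase gene, stood at -1.06 on the atfA-silent array and -3.83 on the atfA-expressing array, a difference of 2.77 ± 0.07. tmpL (AN9129) was at least 1.92-fold higher and acuM (AN6293), a regulator of gluconeogenesis, at least 1.53-fold. The replication gene psf3 (AN5574) and fma-AT (AN7083) had bounds of 1.25 and 1.09, and ppt1 (AN10281) differed by 1.54. From tmpL to ppt1 these 5 genes stood at -5.07 or lower on both arrays, and fma-AT was at -0.10 after normexp background correction.

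On the lower side the largest was coaT (AN1547), a CoA-transferase gene, at -4.15 on the atfA-silent array (labelled reference) and 0.47 on the atfA-expressing array, a difference of -4.61 ± 0.11. It was lower in the untreated, AmB and CdCl2 pairs too, at -5.63, -1.55 and -5.50. fmaG (AN3394) followed at -2.29, with -2.61 untreated and bounds of at least 6.04-fold lower under AmB and 8.22-fold under CdCl2, and gatA (AN2248), GABA transaminase, at -2.10 ± 0.08, with levels of 1.74 and 3.84. ish1 (AN4940) differed by -1.85 and ergS (AN8148) was at least 1.5-fold lower. Smaller differences were those of gliT (AN3963) at -1.35, the transporter gene mfsA (AN9168) at -1.34, agd3 (AN2954) at -1.33, the opsin gene nopA (AN3361) at -1.29, with levels of 2.45 and 3.73, and fmaE (AN3295) at -1.23. Of these, nopA was lower by more without treatment and under CdCl2, at -2.66 and -2.56, while fmaE stood at 0.49 untreated.

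**Figure D4:**
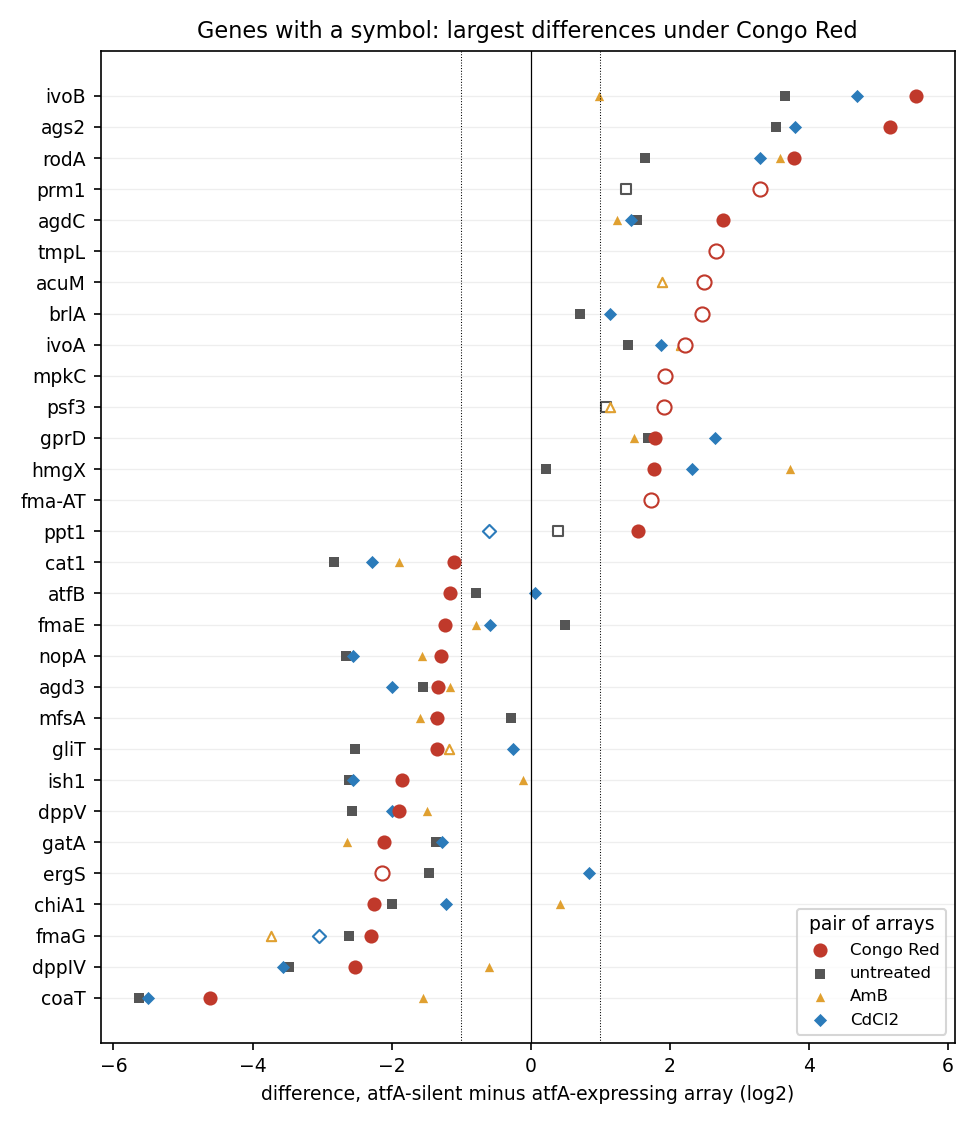
The 15 genes with a symbol that had the largest differences each way under Congo Red (atfA and the marker genes left out), as atfA-silent minus atfA-expressing array (log2, horizontal axis), with the same genes in the untreated, AmB and CdCl2 pairs. Dotted lines mark 2-fold. Filled symbols are above background on both arrays of the pair and open symbols on 1, and none is drawn where neither array was. The values under Congo Red run from 5.54 for ivoB to -4.61 for coaT.

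The largest differences of all, apart from atfA, lay in genes without a symbol. On the higher side AN6401 stood at 4.91 on the atfA-silent array (labelled reference) and -2.82 on the atfA-expressing array, a difference of 7.73 ± 0.07. AN1941 was at 2.85 and -3.98, a difference of 6.83 ± 0.05, and AN8928 at 2.06 and -4.61, a difference of 6.66 ± 0.06. Among the 10 largest, AN1756 was at least 105-fold higher, AN3228 at least 56.6-fold, AN6788 at least 44.2-fold and AN8422 at least 31.8-fold. The bounds of AN12170, AN7058 and AN3227 were 27.3-fold, 20.4-fold and 17.1-fold. On the lower side AN5056 stood at -5.84 on the atfA-silent array and 4.17 on the atfA-expressing array, a difference of -10.00 ± 0.08, and AN9180 at -5.93 and 3.41, a difference of -9.34 ± 0.11. AN3520 differed by -7.54 and AN9285 by -6.83. AN2922 was at least 209-fold lower, AN8959 at least 129-fold, AN0694 at least 32.4-fold, AN2894 at least 29.9-fold and AN3517 at least 16.6-fold.

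The Congo Red calls recurred in part in the other pairs. Of the 494 lower genes, 396 were at least 2-fold lower without treatment, which is 80.2% of the Congo Red list and 43.4% of the untreated list. In the CdCl2 pair 362 were, which is 73.3% of the Congo Red list and 40.8% of the other, and in the AmB pair 238, which is 48.2% and 19.7%. Of the 544 higher genes, 241 were at least 2-fold higher without treatment, 44.3% of the Congo Red list and 54.8% of the untreated list. The count was 243 in the CdCl2 pair, 44.7% and 33.2%, and 266 in the AmB pair, 48.9% and 16.6%. These shares of the Congo Red lists include genes not well above background on either array of the other pair. Compared in the untreated, AmB and CdCl2 pairs were 488, 409 and 468 of the higher genes. Of the lower genes 476, 428 and 486 were. Of all genes compared in those pairs, 5.29%, 19.7% and 8.67% were higher and 11.0%, 14.9% and 10.5% lower. The contrast in these shares between higher and lower genes was not tested. The higher list holds 387 genes of the dimmest tertile and the lower list 249. Across genes the Congo Red differences correlated with those of the untreated pair at Pearson's r = 0.79 (8249 genes), with CdCl2 at 0.70 (8272) and with AmB at 0.41 (7801); the pairs share probes and no array, and genes are not independent replicates. Of 7714 genes compared in all 4 pairs, 120 were at least 2-fold higher in every pair (1.56%) and 194 at least 2-fold lower (2.51%).

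Ranked by the smallest of the 4 differences, the 6 leading genes on the higher side were again without a symbol. AN11864 came first, at 4.42 under Congo Red and 5.74 and 5.76 in the untreated and CdCl2 pairs, and at least 7.2-fold higher under AmB. AN6401 stood at 4.39, 6.26 and 5.25 in the untreated, AmB and CdCl2 pairs. No atfA-expressing array had AN1756 well above background, and it was higher with bounds of 31.6-fold, 5.2-fold and 54.2-fold in those pairs. AN11899 was at 4.38 under Congo Red, beside 4.29, 4.0 and 3.76, and AN10371 at 3.77, beside 3.53, 4.56 and 4.29. AN8928 followed at 5.11 untreated and 4.49 under CdCl2, and at least 3.68-fold higher under AmB. On the lower side, after atfA, AN9180 was at -9.34 under Congo Red, beside -9.12, -7.57 and -8.67. AN3520 stood at -6.12 untreated and -9.75 under CdCl2, and was at least 143-fold lower under AmB. The next 3 were not well above background on the atfA-silent arrays of the other pairs. AN6419 was at least 9.96-fold lower under Congo Red, and at least 17.7-fold, 6.56-fold and 7.8-fold lower in the untreated, AmB and CdCl2 pairs. AN7989 was at -4.88 under Congo Red, with bounds of 55.8-fold, 10.1-fold and 69.8-fold, and AN6404 at -5.58, with bounds of 44.1-fold, 8.62-fold and 20.1-fold. Other genes departed under Congo Red from the mean of the other pairs. Of 374 higher genes compared in all pairs, 59 were below 2-fold in each of the other 3, and 28 of 425 lower genes were. In the untreated, AmB and CdCl2 pairs 16.3%, 34.7% and 19.2% of all genes compared were past 2-fold. AN6789 stood at -0.55 on the atfA-silent array (labelled reference) and -4.24 on the atfA-expressing array, a difference of 3.69, beside 0.66, -1.14 and 0.30. AN12099 was at 3.66, beside 1.54 untreated and 0.63 under CdCl2, and was not well above background on either AmB array. AN11002 was at 3.05, beside 0.51 untreated and 0.17 under CdCl2, and at least 1.45-fold lower under AmB. AN8435 was lower under Congo Red at -1.80 ± 0.04, with levels of -2.50 and -0.70, and none of the other 6 arrays had it well above background. AN5426 was at -3.15, beside at least 1.59-fold lower untreated, at least 2.30-fold higher under AmB and 0.29 under CdCl2.

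Called genes often lay next to each other. In the gene order of the reference annotation, 148 of 503 higher genes (29.4%) had an adjacent gene that was higher too, against 9.57% of all 7808 compared genes that lay beside a higher gene. For lower genes it was 148 of 462 (32.0%), against 7.88%. Runs of at least 3 adjacent genes called the same way numbered 13 on the higher side, with 52 genes, and 20 on the lower side, with 64. The longest had 7 genes, from AN7270 to AN7264, at 1.29 to 2.99, with medians of 1.62 under Congo Red, 0.37 untreated, 1.69 under AmB and 0.04 under CdCl2. AN7266 in that run stood at 2.99 on the atfA-silent array (labelled reference) and 0.01 on the atfA-expressing array. The run with the highest median had 6 genes, from AN3230 to AN3225, at 2.30 to 7.09 with a median of 5.64, or 5.34 with dim arrays at their bounds. Of its members AN3229 was at 0.19 and -5.45 and AN3226 at 6.39 and 4.09, and AN3230, AN3229, AN3226, AN3225 and AN3228 were at least 2-fold higher in the untreated and CdCl2 pairs as well. AN7909, AN7911 and AN7912 stood at 3.93, 4.50 and 4.19. On the lower side the run from AN3520 to AN3517 had 4 genes. AN3519 was at least 25.4-fold and AN3518 at least 58.9-fold lower. With dim arrays at their bounds the median of the run was -5.27 under Congo Red, -5.49 untreated, -0.55 under AmB and -5.13 under CdCl2. Of the 4 listed ethanol use genes, 3 lie in a run of 4 from AN8981 to AN8978, whose median with dim arrays at their bounds was -2.21 under Congo Red and, over the 3 genes compared there, 0.14 under AmB. The 3 penicillin genes form a run, as do hmgA, hmgX and AN1899.

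**Figure D5:**
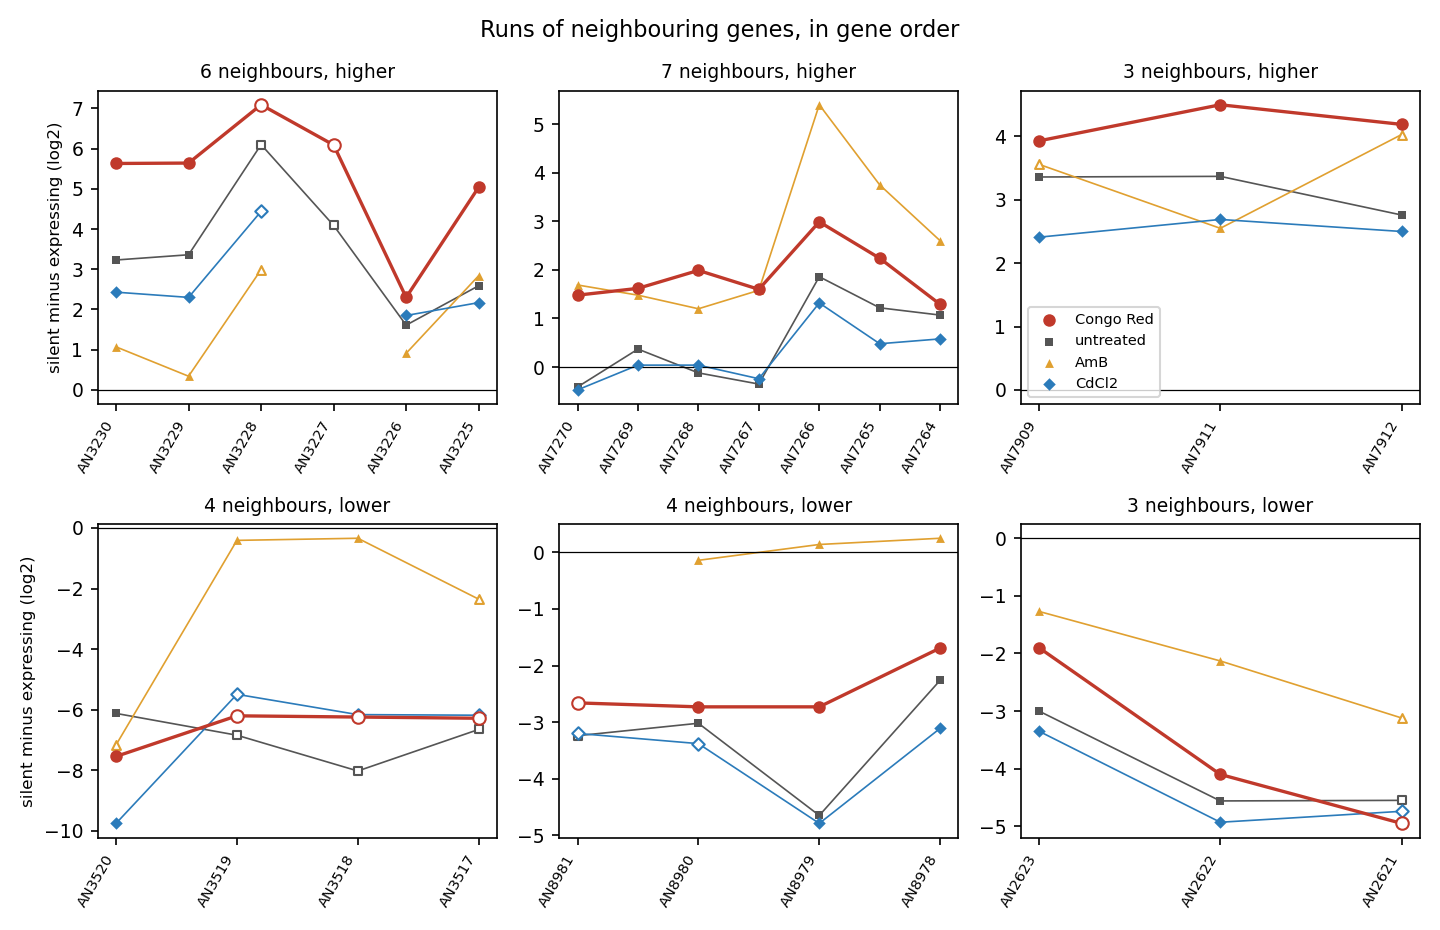
Differences (atfA-silent minus atfA-expressing array, log2, vertical axis) of 6 runs of neighbouring genes in gene order (horizontal axis), in the Congo Red, untreated, AmB and CdCl2 pairs. The run from AN7270 to AN7264 has a median of 1.62 under Congo Red and 0.04 under CdCl2, while that from AN3520 to AN3517 has medians of -5.27 and -5.13 with dim arrays at their bounds. Filled symbols are above background on both arrays of the pair and open symbols on 1, and none is drawn where neither array was.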

How the data were processed

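Single-colour Cy3 arrays with 10550 probes in 4 spots each were used. The submitters' processing notes name Agilent Feature Extraction 12.0.3.1. The deposited scanner files give the processed signal, which per the file headers is a linear intensity after background subtraction. The authors also deposited a value table on the log2 scale with column medians of 9.237 to 9.26; how it was normalized is not stated in any source used here, and its 2 Congo Red columns were matched to the arrays by correlation. Control spots were dropped, as were those flagged as outliers (1.46% to 1.90% per array). Each probe took the mean log2 signal of its spots, less log2 of the array's 75th percentile. The median SD between spots was 0.087 and 0.089 (log2) on the 2 Congo Red arrays, which covers the slide and not the cultures, so precision is limited by the number of arrays. No probe was saturated there. With 1 array per group nothing was tested, and at least 2-fold was counted as a difference. Slides were read from the scanner files' names.

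IDs were matched to the RefSeq table of assembly ASM1142v1: 9697 probes matched and 776 had a symbol, some of them names of orthologues. No genome build is named, so coordinates are not given, and no sequence or promoter was used. Of 167 entries in 21 gene lists, 164 were on the array, 70 of them without a symbol in the table and placed from general knowledge of A. nidulans. The members, lists and rules were chosen with earlier results of these data known. Named were atfA and the marker genes, the 15 largest differences each way among genes with a symbol, the 10 largest of all, list members past 2-fold and up to 4 near each list's median, the 6 that departed most from the other pairs and the 6 with the largest smallest difference over the 4 pairs; further list members and neighbours were chosen after their values were seen. Alternatives were normexp background correction (limma 3.58.1 in R 4.3.3), quantile normalization, other filters, the value table and a 3-fold limit. The normexp step used the median spot intensity, since the scanner files used here hold no mean intensity. The calculation was tested on simulated data.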

Additional observations from a re-analysis of the deposited data

Results flagged for a closer look

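Of the 1038 genes past 2-fold under Congo Red, 95 were at least 2-fold the other way in another pair, 7 of them untreated, 70 under AmB and 25 under CdCl2. Under AmB 49 of 428 lower genes compared there were higher, beside 19.7% of all genes. There 21 of 409 higher genes were lower, beside 14.9% of all genes. In the untreated and CdCl2 pairs 5.29% and 8.67% of all genes were higher and 11.0% and 10.5% lower. With dim arrays at their bounds 69 were. Among the genes named here there were 7, and 6 at their bounds. With 1 array per group this contrast between conditions was not tested. AN6789 stood at 3.69 under Congo Red and -1.14 under AmB, and AN11002 at 3.05 and -1.13, where its bound was 1.45-fold because it was not well above background on the AmB atfA-silent array. AN3513 was at -1.23 under Congo Red and 3.45 under AmB. AN3246 was at -1.26 under Congo Red, 1.06 untreated and 2.87 under AmB, but was not well above background on the atfA-expressing array of either pair, with bounds of 1.96-fold and 3.69-fold. AN5634, of the acetate list, was at -1.28 under Congo Red and 4.12 under AmB. AN5410 was at -2.84 under Congo Red, 3.23 under AmB and 1.03 under CdCl2, and AN5426 at -3.15 under Congo Red and 1.45 under AmB, where it was not well above background on the atfA-expressing array and its bound was 2.30-fold. The AmB arrays were the dimmest of the series, with 75th percentiles of 335.7 (atfA-silent) and 261.8 (atfA-expressing), against 1293.1 and 1062.1 under Congo Red.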

How the results depend on the processing

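The arrays were named by the atfA probe, so the direction of its difference was set by that choice and is no result. Its size, -12.11, was -7.45 with normexp background correction and -8.07 in the authors' deposited value table. It stayed past 2-fold under every alternative run for it. The count of higher genes, 544, was 202 after normexp background correction, 354 with probes above background on both arrays, 243 in the authors' deposited value table and 270 at a 3-fold limit. The count of lower genes, 494, was 317 with normexp and 267 at 3-fold. With normexp 199 of the higher and 313 of the lower genes were among those called here, and 237 and 338 were in the values the authors deposited. Quantile normalization gave 469 higher and 535 lower genes. The median of all genes ran from 0.002 to 0.093 over the settings. The conidium wall list, at 1.29, had a median of 0.54 with normexp, 0.90 with probes above background on both arrays and 0.55 in the value table. The proline list, at 1.29, was at 0.31 with normexp, 0.41 in the value table and 0.82 with dim arrays at their bounds. The tyrosine list, at 1.16, was at 0.35 with normexp and 0.58 in the value table, and the ethanol list, at -2.18, at -0.97 with normexp. fma-AT turned to -0.10 with normexp. Of 91 named genes past 2-fold other than atfA, 25 came below 2-fold with normexp, 22 in the value table, 8 at their bounds and 1 under quantile normalization, fma-AT not counted. The cause was not tested. No paired analysis was possible because the Congo Red comparison has 1 array per group, all numbered replicate 1; a fit over the 4 conditions would test a mean over them and was not run.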
